A study of Mus musculus with 12 samples.

Results

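The CpG cytosines described here lie in a stretch of N4bp1 on mouse chromosome 8, at chr8:89376778-89377095 of mm9. They are the cytosines followed by guanine in that stretch covered by 10 or more read-outs in all 12 samples, which left 15 of the 384 CpG cytosines measured over 14 targeted loci. A read-out is 1 sequenced base at a cytosine, either C (not converted by bisulfite) or T (converted), and the C share is the percent of read-outs that were C. N4bp1 encodes NEDD4 binding protein 1, an RNase and a regulator of inflammatory signalling.

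The samples were mouse embryonic stem cells of the V6.5 line, either parental (v6.5, labelled wild-type) or stably depleted of Tet2 with a short hairpin RNA from pSUPER-puro-Tet2shRNA (Tet2kd). The treatment label also lists a Tet1 hairpin vector beside the Tet2 one, while the methods of the study name the Tet2 vector alone. Each genotype had 3 replicates, which the study describes as independent cultures. The DNA of each replicate was divided into 1 part for BS-seq and 1 part oxidised with KRuO4 for oxBS-seq, which gave 3 samples for each genotype and assay. Both genotypes grew in medium with serum and LIF. Tet2kd cells additionally went through electroporation, puromycin and the picking of clones on feeder cells, so the hairpin cannot be told apart from that handling or from differences between clones, and the titles of the v6.5 samples also carry the word knock-down, so genotype was taken from the genotype and source labels. The study checked Tet2 depletion by quantitative PCR and western blot, which were not analysed here, and the files used here hold DNA modification only, so neither Tet2 nor marker genes of the cell type could be looked up in these samples.

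TET2 is a dioxygenase that oxidises 5-methylcytosine (5mC) to 5-hydroxymethylcytosine (5hmC), and further oxidation followed by base excision restores unmodified cytosine. Bisulfite converts unmodified cytosine but neither 5mC nor 5hmC, so the BS-seq C share is 5mC and 5hmC together. Oxidation turns 5hmC into 5-formylcytosine, which bisulfite converts, so the oxBS-seq C share is mainly 5mC, and the excess of BS-seq over oxBS-seq reports 5hmC. In stem cells, gene bodies are as a rule highly methylated at CpG, and DNMT1 copies methylation from one strand of the palindromic CpG to the other.

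The annotation put most of the stretch outside the coding exon named for it. N4bp1 (ENSMUSG00000031652.9) lies on the minus strand at chr8:89365038-89409157, and the only exon of its 3 annotated transcripts that overlaps the stretch is exon 3 of ENSMUST00000034074.7, at chr8:89377058-89377188 and coding throughout. That exon covers 38 of the 318 bp and holds 1 of the 15 cytosines. The other 14 cytosines lie in the intron that follows the exon. The Crick strand of the genome is the sense strand of the gene.

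The 15 cytosines belong to 8 CpGs, numbered here 1 to 8 by coordinate. CpG 1 to 7 were read on both strands, and CpG 8, the exonic one, on the Crick strand alone, which gave 7 Watson and 8 Crick cytosines. The sequence below, taken from the mm9 genome at chr8:89376803-89377095 on the plus strand, shows how they are placed, with every CpG in capitals. Read on this strand it runs from inside the intron into the exon.
Window: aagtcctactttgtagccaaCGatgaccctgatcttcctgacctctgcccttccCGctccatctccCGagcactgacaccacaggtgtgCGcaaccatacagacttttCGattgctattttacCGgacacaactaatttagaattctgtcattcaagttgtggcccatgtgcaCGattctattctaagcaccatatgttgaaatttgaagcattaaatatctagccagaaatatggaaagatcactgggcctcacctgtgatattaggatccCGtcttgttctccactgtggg

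CpG 1 to 6 sit within 235 to 132 bp of the exon boundary on the intron side, CpG 7 sits 82 bp from it, and CpG 8 lies 17 bp inside the exon. CpG 2 and CpG 3 are the closest neighbours, 12 bp apart, and CpG 7 and CpG 8 the farthest, 99 bp apart. The stretch has 46.2% G and C and a CpG observed-to-expected ratio of 0.485, and its 25.2 CpGs per kb rank 13 among the 14 loci. The 4 CpGs that the values below turn on are shown with 10 bases on each side, the CpG in capitals: CpG 1 had the largest change between genotypes, CpG 3 the highest 5hmC in v6.5, CpG 4 the smallest change, and CpG 8 is the one in the exon.
CpG 1: ttgtagccaaCGatgaccctga
CpG 3: ctccatctccCGagcactgaca
CpG 4: cacaggtgtgCGcaaccataca
CpG 8: attaggatccCGtcttgttctc

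Each cytosine had between 723 and 9316 read-outs in a sample, and within a strand and sample the highest depth was at most 1.11 times the lowest, so the cytosines of a strand were read largely from the same molecules. The 95% Wilson interval of a single C share reached between 0.422 and 3.63 percentage points to either side. Depth on the Watson and Crick strands differed by up to 7.95-fold within a sample. Libraries were made by PCR without molecular identifiers, so these intervals cover counting error only. The spike-in 5hmC control gave oxidation efficiencies of 0.778, 0.472 and 0.743 in v6.5 replicates 1, 2 and 3 and of 0.624, 0.545 and 0.498 in the Tet2kd replicates, and read directly from that control, with no model, 0.756, 0.443 and 0.717 against 0.598, 0.512 and 0.438. The genotypes overlapped, and for a given excess of BS-seq over oxBS-seq the 5hmC values below are larger where the efficiency is lower.

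The N4bp1 CpGs were more methylated in Tet2kd than in v6.5 in both assays. Averaged over the 15 cytosines, the v6.5 replicates 1, 2 and 3 had a BS-seq C share of 75.6%, 76.3% and 77.5%, against 86.3%, 84.2% and 83.8% for the Tet2kd replicates. Every Tet2kd sample was above every v6.5 sample. The v6.5 mean was 76.5% ± 0.962 and the Tet2kd mean 84.8% ± 1.36 (SD, n = 3 each), a difference of 8.30 percentage points (two-sided exact permutation test over samples, p = 0.1, the smallest that 3 against 3 samples can give).

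The oxBS-seq C share was higher in Tet2kd as well. The v6.5 replicates read 71.0%, 73.4% and 72.9% and the Tet2kd replicates 84.3%, 81.0% and 81.9%, again without overlap. The difference was 9.97 percentage points, from 72.4% ± 1.27 (SD, n = 3) to 82.4% ± 1.71 (SD, n = 3) (exact permutation test, p = 0.1). The BS-seq T share, which is unmodified cytosine together with 5-formylcytosine and 5-carboxylcytosine, was 23.5% in v6.5 and 15.2% in Tet2kd, lower by 35.3% of its v6.5 level.

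Cytosines outside CpG in the same stretch gave the background. They include the 19 described below that had a C share above 1% in at least 3 samples. Over 124 such cytosines, the v6.5 mean in BS-seq was 0.467% ± 0.002 and the Tet2kd mean 0.508% ± 0.022 (SD, n = 3 each), a difference of 0.041 percentage points. In oxBS-seq these were 0.456% ± 0.013 and 0.604% ± 0.082 (SD, n = 3 each), a difference of 0.148 percentage points. These samples did not overlap between genotypes either (exact permutation test, p = 0.1 in each assay), with differences far smaller than those at the CpGs. The background was higher over the 81 of these cytosines between the first and last CpG of their strand. There the v6.5 and Tet2kd means were 0.596% and 0.656% in BS-seq, a difference of 0.060 percentage points. In oxBS-seq they were 0.581% and 0.798%, a difference of 0.217 points.

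In BS-seq, 9 of the 15 cytosines had every Tet2kd sample above every v6.5 sample, against 56.2% of all 384 CpG cytosines. By edgeR's quasi-likelihood test with Benjamini-Hochberg adjustment over those 384, at a threshold of 0.05, 10 of the 15 rose, against 58.6% of all. In oxBS-seq, 11 of 15 did not overlap, against 49.2% of all, and 6 of 15 rose, against 36.2% of all. These counts lay near the shares over all targeted CpGs, the count without overlap in oxBS-seq being the farthest above, and cytosines that share molecules do not count separately. The median change of a cytosine was 4.82 percentage points in BS-seq, where all 384 had 5.94, and 6.75 in oxBS-seq, where all had 7.61. When edgeR was fitted over all 2428 cytosines of any context, 3 of the 15 were called in BS-seq, against 4.2% of all, and 0 in oxBS-seq, where it called 0% of all and 5 of the 15 had an unadjusted p under 0.05. Fisher's exact test on read-outs summed over replicates, which takes no account of their spread, called 15 of 15 in each assay, against 77.6% of all CpG cytosines in BS-seq and 81.8% in oxBS-seq.

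**Figure D1:**
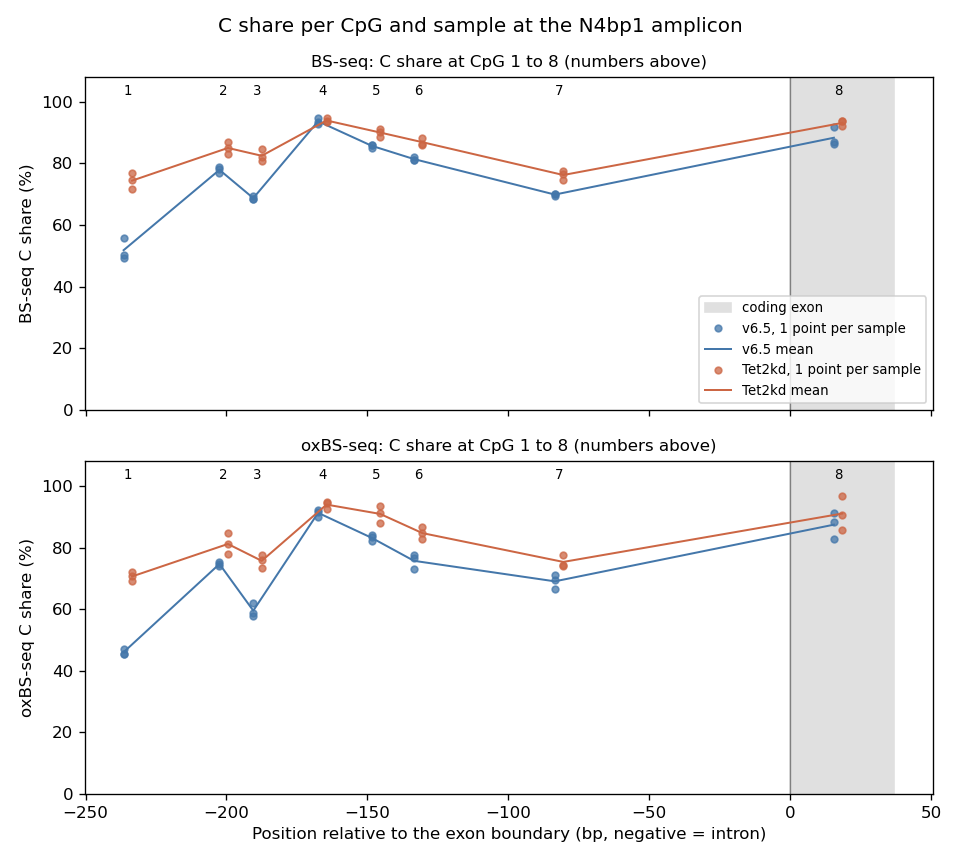
C share in percent (vertical axis) at CpG 1 to 8 against their position in bp from the exon boundary (horizontal axis, negative in the intron, grey band the exon), for BS-seq above and oxBS-seq below, with 1 point per sample and lines through the means of v6.5 (blue) and Tet2kd (orange); CpG 1 to 7 are means of both strands. The genotypes are farthest apart at CpG 1, where v6.5 lies near 51.9% and Tet2kd near 74.4% in BS-seq, and closest at CpG 4, near 93.7% and 94.0% in BS-seq.

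Levels were uneven along the stretch, and more so in v6.5. As means of both strands where both were read, the BS-seq C share ran from 51.9% at CpG 1 to 93.7% at CpG 4 in v6.5, and from 74.4% at CpG 1 to 94.0% at CpG 4 in Tet2kd. The order of the levels in v6.5, from the lowest, was CpG 1, 3, 7, 2, 6, 5, 8 and 4. CpG 3 and CpG 7, at 68.7% ± 0.699 and 69.9% ± 0.450, had overlapping samples, and CpG 5 and CpG 8, at 85.7% ± 0.618 and 88.4% ± 3.07, differed by less than the spread of CpG 8 (SD, n = 3 each).

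CpG 1, the CpG farthest into the intron, was the least methylated in both genotypes and changed the most. In BS-seq the v6.5 samples read 50.3%, 49.4% and 55.8% and the Tet2kd samples 77.0%, 71.7% and 74.6%. The lowest Tet2kd sample was above the highest v6.5 sample. The difference was 22.6 percentage points in BS-seq and 24.6 in oxBS-seq (exact permutation test, p = 0.1 each). In oxBS-seq the v6.5 samples read 47.0%, 45.6% and 45.5% and the Tet2kd samples 70.7%, 69.2% and 72.1%. Both of its cytosines rose in both assays by edgeR, the Watson cytosine with a log2 odds ratio of 1.40 in BS-seq (adjusted p = 0.000113) and 1.68 in oxBS-seq (adjusted p = 0.0012).

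CpG 3 had the second largest change and the highest 5hmC in v6.5. The v6.5 samples gave 68.4%, 68.3% and 69.6% by BS-seq, against 84.8%, 82.0% and 80.7% for Tet2kd. By oxBS-seq the v6.5 samples gave 57.9%, 61.9% and 58.7%, against 76.1%, 73.4% and 77.7% for Tet2kd. No sample of one genotype reached the other in either assay. The difference was 13.7 percentage points in BS-seq and 16.2 in oxBS-seq, and edgeR called all 4 tests of its 2 cytosines, with adjusted p from 0.000227 to 0.0137. CpG 2, only 12 bp away, went from 77.9% to 85.0% in BS-seq, a difference of 7.11 percentage points.

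CpG 4 was almost fully methylated in both genotypes. BS-seq of v6.5 gave 92.8%, 94.7% and 93.6%, and BS-seq of Tet2kd 94.6%, 93.7% and 93.5%, so that the samples overlapped and the means differed by 0.265 percentage points (exact permutation test, p = 0.8). In oxBS-seq the values were 90.1%, 91.6% and 92.2% against 94.8%, 92.6% and 94.5%, which did not overlap and differed by 2.67 points (exact permutation test, p = 0.1). Neither of its cytosines passed edgeR's test in either assay, with adjusted p from 0.0864 to 0.32. Its Watson cytosine was the one member with a lower mean in Tet2kd in BS-seq, with a change of -1.19 percentage points.

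CpG 8, the coding one, was also highly methylated. By BS-seq its Crick cytosine read 86.3%, 86.8% and 91.9% in the v6.5 replicates, against 93.7%, 92.0% and 93.8% in those of Tet2kd. The samples did not overlap, although v6.5 replicate 3 nearly reached Tet2kd replicate 2, and the cytosine rose by edgeR (log2 odds ratio 0.84, adjusted p = 0.0132). In oxBS-seq the samples of each genotype spread more, at 82.6%, 91.3% and 88.4% for v6.5 against 96.7%, 85.8% and 90.7% for Tet2kd. They overlapped, and the difference of 3.62 points did not pass (edgeR, adjusted p = 0.313).

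The remaining CpGs 5, 6 and 7 lay between. Their BS-seq differences were 4.30, 5.48 and 6.35 percentage points and their oxBS-seq differences 7.76, 8.995 and 6.30, with no overlap of the samples in either assay. By edgeR, both cytosines of CpG 5 rose in BS-seq and the Crick one in oxBS-seq, the Crick cytosine of CpG 6 rose in both assays, and of CpG 7 and CpG 2 the Crick cytosine rose in BS-seq alone. Over all 8 CpGs, 7 did not overlap in BS-seq (all but CpG 4), against 61.7% of all 214 targeted CpGs taken the same way, and 7 in oxBS-seq (all but CpG 8), against 56.5%.

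**Figure D2:**
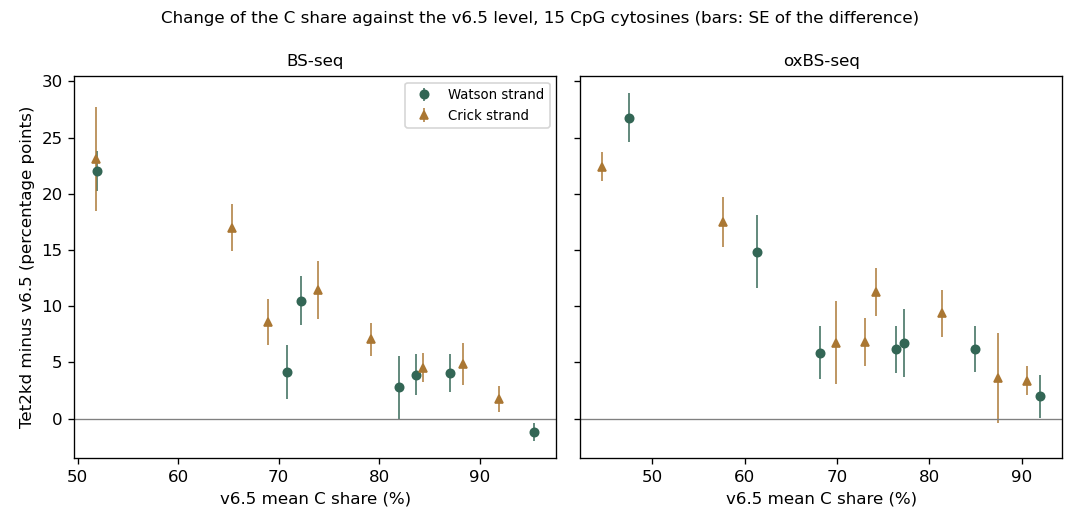
Difference of the mean C share, Tet2kd minus v6.5, in percentage points (vertical axis) against the v6.5 mean C share in percent (horizontal axis) for the 15 cytosines in BS-seq (left) and oxBS-seq (right), with circles for the Watson and triangles for the Crick strand and bars for the standard error of the difference. The 2 cytosines of CpG 1 stand at the upper left of each plot, and those of CpG 4 at the lower right.

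The lower a cytosine stood in v6.5, the larger its difference. Over the 15 cytosines, Pearson's r between the v6.5 C share and the change was -0.93 in BS-seq and -0.91 in oxBS-seq, and Spearman's rho -0.84 and -0.81. This is a description only, since the cytosines share molecules and libraries and the v6.5 value enters both measures. Relative to the T share that was there to lose, the CpGs still differed. In BS-seq the T share was lower by 46.9% of its v6.5 level at CpG 1, 44.0% at CpG 3 and 41.4% at CpG 8, but by 21.1% at CpG 7, which started at a C share close to that of CpG 3, and by 4.2% at CpG 4. In oxBS-seq the order was different, with 46.1% at CpG 5, 45.6% at CpG 1, 39.97% at CpG 3, 30.6% at CpG 4, 28.8% at CpG 8 and 20.4% at CpG 7, so of these contrasts only the high place of CpG 1 and CpG 3 and the low place of CpG 7 appeared in both assays.

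The 2 strands of a CpG did not always read alike. Over CpG 1 to 7, the Watson mean minus the Crick mean in BS-seq was 4.31, 7.88 and -0.37 percentage points in v6.5 replicates 1, 2 and 3 and -0.659, 4.30 and -3.50 in the Tet2kd replicates. In v6.5 replicates 1 and 2 and in Tet2kd replicate 2, Watson was the higher strand at 7 of 7 CpGs, and in Tet2kd replicate 3 at 1 of 7. In oxBS-seq of Tet2kd replicate 3, the other part of the same DNA, Watson was higher at 7 of 7, by 4.91 points on average. The larger of these gaps exceeded the Wilson interval of a single C share, and the part of the separate amplification of each strand in them was not tested.

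The change was 6.60 percentage points on the Watson cytosines and 9.79 on the Crick cytosines in BS-seq, and 9.79 and 10.1 in oxBS-seq. Over the 7 CpGs read on both strands, the change of Watson minus Crick was -3.90 points in BS-seq (exact permutation test, p = 0.2) and -1.28 in oxBS-seq (p = 0.6), so a difference between strands was not shown. These values rested on single replicates: they ranged from -6.05 (without v6.5 replicate 3) to -1.92 (without v6.5 replicate 2) in BS-seq, and from -3.21 (without Tet2kd replicate 3) to -0.206 (without Tet2kd replicate 1) in oxBS-seq. By edgeR, 7 of 8 Crick and 3 of 7 Watson cytosines rose in BS-seq, against 58.6% of all CpG cytosines on both strands together. In oxBS-seq, 4 of 8 and 2 of 7 rose, against 36.2% of all. The shares over all CpG cytosines were not computed by strand, so these counts do not show a difference between strands.

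The C, 5mC and 5hmC proportions were then estimated with Lux, a hierarchical model that reads both assays together and uses the conversion and oxidation efficiencies of each replicate. Averaged over the 15 cytosines, 5mC came to 70.1%, 69.3% and 71.5% for the v6.5 replicates, against 83.2%, 78.1% and 78.8% for those of Tet2kd. The genotypes did not overlap, and 5mC was 9.72 percentage points higher in Tet2kd (70.3% ± 1.15 against 80.0% ± 2.73, SD, n = 3 each, exact permutation test, p = 0.1). The C state, in which Lux holds unmodified cytosine, 5-formylcytosine and 5-carboxylcytosine together, changed by -9.05 points, from 22.8% ± 0.928 to 13.8% ± 1.54 (SD, n = 3 each, exact permutation test, p = 0.1).

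A difference in 5hmC was not detected. The v6.5 replicates had 6.14%, 7.88% and 6.55% and the Tet2kd replicates 4.82%, 7.07% and 6.66%, and the samples overlapped. The means were 6.86% ± 0.909 and 6.18% ± 1.198 (SD, n = 3 each), a change of -0.677 points (exact permutation test, p = 0.6). The strands differed: from the Watson cytosines alone the change was -2.86 points (p = 0.4 by the same exact test) and from the Crick cytosines alone 1.24 points (p = 1). It was -1.67 points by the plain difference of the assays and -1.72 with that difference divided by the raw oxidation efficiency (exact p = 0.2 each), and without Tet2kd replicate 1 it was 0.0753 points. With that division, which unlike Lux allows values below 0, the means were 6.36% in v6.5 and 4.63% in Tet2kd. By Lux, 0 of the 15 cytosines, of which edgeR called 10 in BS-seq and 6 in oxBS-seq, had a Bayes factor above 10 for a difference in the proportions. It ran from 0.00545 to 0.913 with a median of 0.0643, and 0.521% of all 384 CpG cytosines exceeded 10. The study used the same measure but counted cytosines as differentially methylated from a Bayes factor above 1, and the highest value here stayed below that too.

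**Figure D3:**
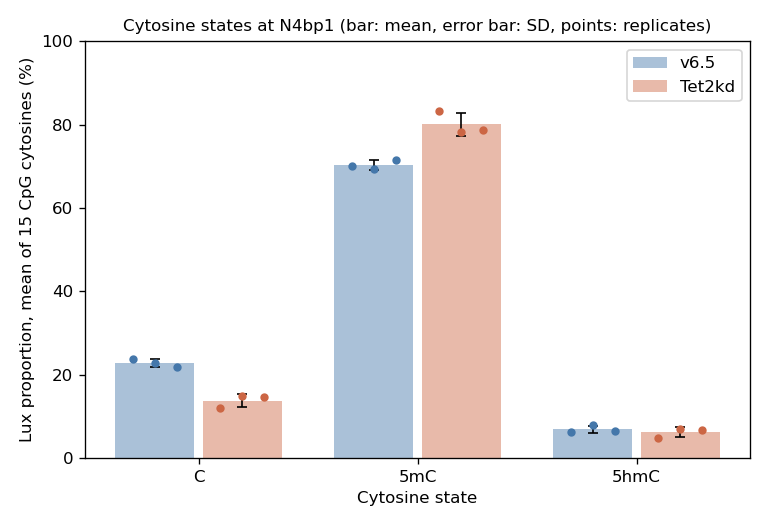
Proportions of C, 5mC and 5hmC in percent (vertical axis), as the mean of the 15 cytosines by Lux, in v6.5 (blue) and Tet2kd (orange), with bars for the mean, error bars for the SD and 1 point per replicate. 5mC is higher and C lower in all Tet2kd replicates, and 5hmC overlaps near 6.86% and 6.18%.

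The excess of BS-seq over oxBS-seq, before any model, was small at this locus. Its mean over the 15 cytosines was 4.58, 2.91 and 4.61 percentage points in v6.5 and 2.01, 3.18 and 1.89 in Tet2kd. In 6 of the 45 v6.5 and 15 of the 45 Tet2kd pairs of values, oxBS-seq read higher than BS-seq, the opposite of what 5hmC gives. In Tet2kd replicate 3 the excess was -2.40 points on the Watson strand and 5.64 on the Crick strand.

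The single CpGs differed in 5hmC in v6.5. CpG 3 had the highest proportion, with 13.6%, 13.9% and 14.6% in the v6.5 replicates, and its Tet2kd replicates had 13.99%, 15.8% and 9.92%, which overlapped them. CpG 6 followed with a mean of 9.001% ± 3.43 and CpG 1 with 8.62% ± 4.58, and the lowest means, 3.33% ± 0.786 at CpG 7, 3.44% ± 2.14 at CpG 8, 4.06% ± 0.417 at CpG 5 and 4.32% ± 2.02 at CpG 4, lay within their spread (SD, n = 3 each). CpG 3 was above CpG 1 in every v6.5 replicate. Its 5mC was 55.2% ± 0.192 in v6.5 and 70.4% ± 3.14 in Tet2kd, so that C, at 30.8% and 16.4%, made up the difference. At CpG 5, 5hmC read 3.79%, 4.54% and 3.84% for v6.5 against 0.463%, 3.51% and 2.32% for Tet2kd, without overlap and with a change of -1.96 points (exact permutation test, p = 0.1), on low levels throughout. In Tet2kd replicates 1 and 2 its oxBS-seq C share was above its BS-seq C share (93.6% against 91.2%, and 91.1% against 90.2%). Lux holds every proportion above 0, and in replicate 1 both strands of CpG 5 were reversed in this way, so its 0.463% is not a measured level. In replicate 2 only the Crick cytosine was reversed (87.0% in BS-seq, 92.6% in oxBS-seq). Its Watson cytosine had an excess of BS-seq (93.5% against 89.6%), so the 3.51% averages strands that read differently.

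**Figure D4:**
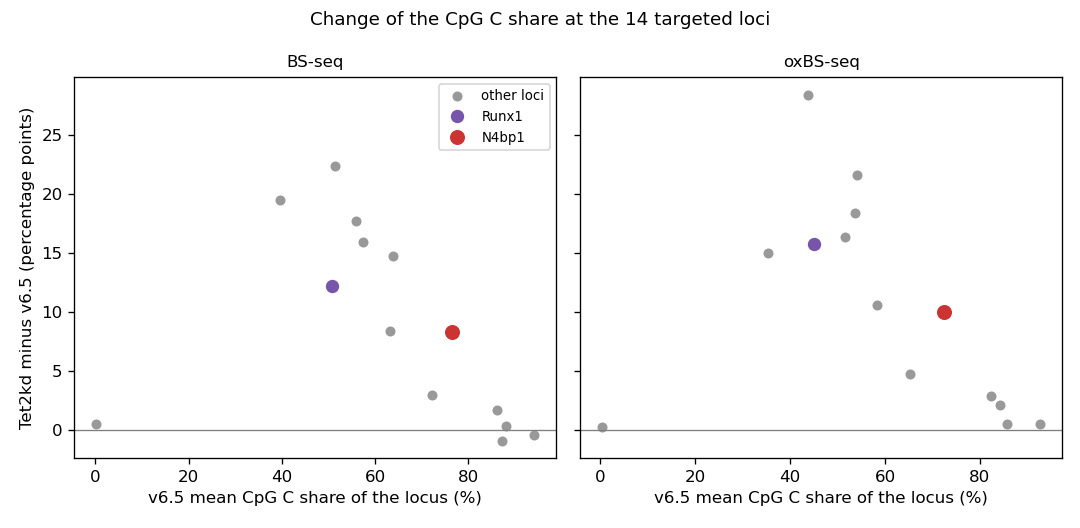
Difference of the mean CpG C share, Tet2kd minus v6.5, in percentage points (vertical axis) against the v6.5 mean in percent (horizontal axis), 1 point for each of the 14 loci, in BS-seq (left) and oxBS-seq (right), with N4bp1 in red and Runx1 in purple. N4bp1 lies at 76.5% and 8.30 points in BS-seq and at 72.4% and 9.97 points in oxBS-seq.

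Among the 14 loci, N4bp1 ranked 5 from the top by v6.5 C share and 8 by its change, in both assays. The other 13 loci differed by -0.939 to 22.4 percentage points in BS-seq, with a median of 8.39, and by 0.196 to 28.4 in oxBS-seq, with a median of 10.6. The study chose most of the loci for a difference in earlier maps of 5mC and 5hmC and the others for showing none. They are no sample of the genome, and the ranks and medians mix both kinds. An almost unmethylated locus, with 64 CpG cytosines and a v6.5 BS-seq C share of 0.227%, is among the other loci. The change at N4bp1 minus the mean change of the other loci was -0.535 points in BS-seq (exact permutation test, p = 0.7) and -0.562 in oxBS-seq (p = 0.7), so a difference from the rest was not shown. Its v6.5 5hmC of 6.86% ranked 8 among the 14.

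Runx1, a gene for a transcription factor of blood formation, was compared because its targeted stretch also overlaps a coding exon, though unlike N4bp1 most of its CpG cytosines, 19 of 24, lie in it. Its C share was lower in v6.5, at 50.75% in BS-seq and 44.99% in oxBS-seq. The change at N4bp1 minus that at Runx1 was -3.88 percentage points in BS-seq (exact permutation test, p = 0.2) and -5.80 in oxBS-seq (p = 0.2), so the 2 loci were not shown to differ in change.

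Some cytosines outside CpG were read as C in every sample. Of the 124, 19 had a C share above 1% in at least 3 samples, 15 of them in the dinucleotide CA, 3 in CT and 1 in CC, while 50 of the 124 lie in CA. Methylation outside CpG, mostly at CA and laid down by the DNMT3 enzymes, is known in embryonic stem cells. The median C share of a non-CpG cytosine in a sample was 0.171%.

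The highest was a Crick cytosine at position 89376889, 3 bases from CpG 4. In BS-seq it read 7.77%, 9.56% and 8.96% for v6.5 against 11.2%, 9.07% and 9.77% for Tet2kd, and the samples overlapped. In oxBS-seq it read 7.43%, 5.60% and 9.73% for v6.5 against 12.2%, 12.5% and 5.78% for Tet2kd, also overlapping. A Watson cytosine at position 89376902, also in CA, read between 3.76% and 10.7% with a median of 5.16% over the 12 samples, and another at position 89376991 between 2.54% and 6.20% with a median of 5.04%. The first lies next to CpG 4, the most methylated CpG of the stretch, and the second between CpG 4 and CpG 5. The third lies on the exon side of CpG 7, whose v6.5 BS-seq C share was 69.9%.

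**Figure D5:**
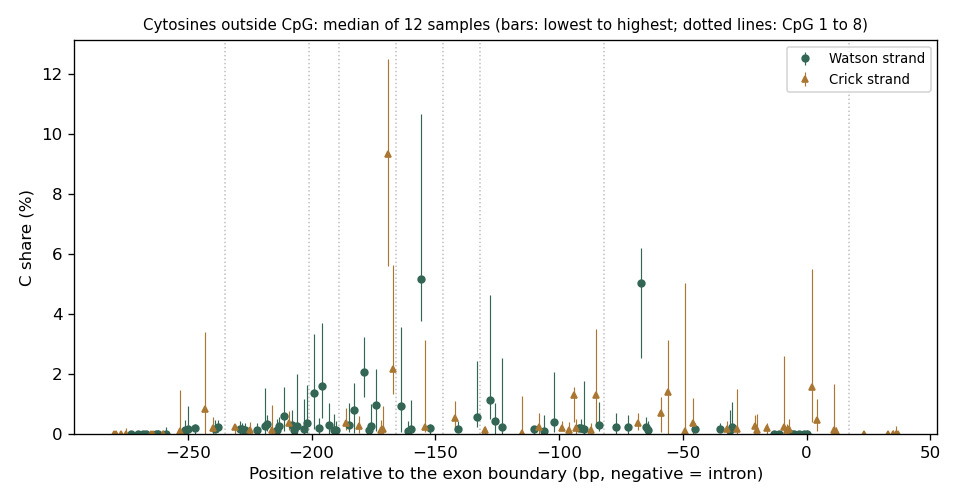
C share in percent (vertical axis) of the 124 cytosines outside CpG against their position in bp from the exon boundary (horizontal axis), with the median of the 12 samples as a point (circles Watson, triangles Crick), bars from the lowest to the highest sample and dotted lines at CpG 1 to 8. The highest point, at a median of 9.32%, stands next to CpG 4, and most others lie close to the overall median of 0.171%.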

How the data were processed

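Targeted loci were amplified from bisulfite-treated DNA with the PyroMark PCR kit and sequenced on a MiSeq in 12 samples. Per the labels, the authors aligned reads with Bismark 0.7.12 and Bowtie2 to mm9, and by the methods of the study they first trimmed adapters, mapped read pairs to mouse and lambda together, and extracted every cytosine context with a minimum of 10 read-outs, counting overlapping mates once. They deposited, for each cytosine, its counts of read-outs as C and as T and the percent of C. Positions were raised by 1 and checked for C or G in the NCBIM37 genome, which is mm9, and annotation came from GENCODE. CpG cytosines with 10 or more read-outs in all samples were kept. The members and lists were chosen with earlier results of these data known.

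Locus values are unweighted means over cytosines per sample, compared by two-sided exact permutation tests over the 20 assignments of samples. Site tests used edgeR 4.0.16 (R 4.3.3) quasi-likelihood on C and T counts with a term for each sample, adjusted over 384 CpG cytosines. Lux was rebuilt in Python 3.11.15 at cytosine level (Dirichlet prior 0.8), with efficiencies fitted to 88 spike-in cytosines. Scripts were tested on simulated data. Named CpGs are those with the largest and smallest BS-seq change and the highest v6.5 5hmC, plus non-CpG cytosines above 1% in 3 samples; describing CpG 8, the exonic one, was decided after its values were seen. The study describes the replicates as independent cultures and does not state that they came from separate knockdowns. The p-values measure the spread between these cultures. The main tests did not pair the genotypes by replicate number. Same-numbered deviations correlated at 0.179, 0.0766 and 0.115 in BS-seq and at 0.0930, -0.0867 and -0.175 in oxBS-seq.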

Additional observations from a re-analysis of the deposited data

How the results depend on the processing

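Of 171 recomputed values, 164 kept their direction and their side of the threshold, or stayed within 1.5 times the count reported. Exact tests on 3 against 3 samples cannot pass 0.05, so their threshold says nothing about stability. Some recomputed values were also bound to equal the main ones, and the 164 include them. Every N4bp1 cytosine had at least 723 read-outs, so a minimum of 100 removed none of them. The sign-flip test over same-numbered replicates reuses the main change. The edgeR counts depended on the test: fitted over all cytosines of any context it called 3 of 15 in BS-seq (4.2% of all 2428) and 0 in oxBS-seq (0% of all, and 5 of 15 at an unadjusted p under 0.05), and Fisher's exact test on summed read-outs called 15 of 15 in each assay (298 of all 384 in BS-seq and 314 in oxBS-seq). With 5hmC, the direction reversed for the Crick strand alone (1.24 percentage points, against -2.86 for the Watson strand). A minimum of 1000 read-outs left no N4bp1 cytosine and gave no value. The cause was not tested for the other changes.

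Leaving out 1 replicate in turn, the BS-seq change stayed between 7.52 and 8.81 points, the oxBS-seq change between 9.02 and 10.7, and the 5mC change between 8.10 and 10.6. The edgeR count of the 15 stayed between 7 and 10 in BS-seq, where the count over all 384 ranged from 192 to 228. In oxBS-seq it stayed between 5 and 8, where the count over all 384 ranged from 91 to 145. The 5hmC change ranged from -1.18 to 0.0753, above 0 without Tet2kd replicate 1. The change relative to the other loci ranged from -1.47 to 0.261 in BS-seq, above 0 without Tet2kd replicate 3, and from -2.04 to 0.519 in oxBS-seq, above 0 without Tet2kd replicate 2.

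With the replicate number as a block, edgeR called 11 of 15 in BS-seq (241 of all 384) and 6 in oxBS-seq (119 of all 384). The exact sign-flip permutation test over same-numbered replicates gave p = 0.25 for the BS-seq and oxBS-seq changes of 8.30 and 9.97 points, the smallest it can give. The pairing check is in the correlation of deviations, from -0.175 to 0.179, and 4 of 6 replicates of v6.5 (3 in BS-seq) were closest to their own number. The restriction to non-CpG cytosines between the outer CpGs and the leave-outs of the strand comparison were added after seeing the data.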
